A study of Bos taurus with 57 samples.

Results

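The genes described here were the 50 most abundant of those whose reads were concentrated in the arcuate nucleus of Holstein-Friesian bull calves. Their level was measured in CPM, the reads on a gene in every 1000000 reads counted in a library. A gene qualified when its mean CPM plus 0.5 in the arcuate nucleus of high plane calves was at least 8 times the same quantity in both the anterior pituitary and the testes of high plane calves. Of the 24616 genes in the files, 491 qualified, and the 50 with the highest arcuate nucleus mean were taken as the members. The members were thus selected on the mean CPM of the high plane libraries in the 3 tissues, so their enrichment and their high level in those libraries are given below as a description. At the lower end of the list, ENSBTAG00000017504 and ENSBTAG00000000791 entered with means of 425.2 and 420.5 CPM, and ENSBTAG00000006451 and ENSBTAG00000000244 stayed outside with 410.5 and 392.4 CPM. At the edge of the ratio, ENSBTAG00000021801 entered at 8.13 and ENSBTAG00000022238 stayed outside at 7.92.

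The study addressed whether the plane of nutrition in early life alters gene expression along the axis from hypothalamus to testes. The animals were Holstein-Friesian bull calves of 126 days of age. Calves on the high plane received a larger allowance of milk replacer and ample concentrate, and calves on the low plane a smaller allowance and restricted concentrate, with labelled growth rates of 1.08 and 0.5 kg per day. The arcuate nucleus was represented by 10 high plane and 10 low plane libraries, the anterior pituitary by 9 and 10, and the testes by 10 and 8. Each library was labelled as a sample of a group, but the labels did not tie libraries of different tissues to a calf. In bulk tissue, fewer cells of a type and less RNA per cell cannot be told apart.

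The arcuate nucleus lies at the base of the hypothalamus and holds neurons that sense leptin, insulin and other signals of energy status. Its neurons release peptides that adjust feeding and growth hormone release, and some of them drive the gonadotrophin releasing hormone neurons that control the pituitary and, through it, the testes. Genes used across brain tissue, such as those of synapses, myelin and astrocytes, are also far more active there than in an endocrine gland or a gonad. The files listed genes by Ensembl identifier and did not pair the identifiers with gene names, so each member is given by its identifier, no role is stated for it, and the labelled tissue was not checked against named markers.

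Library totals in the arcuate nucleus ran from 898979 to 32009433 reads. The shallowest was the high plane library C22, in which each of the 50 members still had reads, the lowest with 72. Low plane libraries C6 and C33 stood apart from the other 18 arcuate nucleus libraries. Values called log2 CPM here and below were computed after TMM scaling, which adjusts library totals for composition, whereas plain CPM values use library totals. The median correlation of C6 and C33 with the other arcuate nucleus libraries was 0.70 and 0.82, whereas the other libraries had values of 0.95 to 0.98. These correlations between libraries used the logarithm of plain CPM with a small offset, without TMM. A score of each library, obtained by averaging log2 CPM over 200 other genes picked in the remaining 2 tissues, was -1.34 in C6 and -0.67 in C33, against 3.41 to 5.10 in the other 18. Anterior pituitary libraries (3 high plane and 2 low plane) and testes libraries (1 high plane and 5 low plane) also had a score under 2.

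The members held 6.69% ± 0.97 (SD, n = 10) of all reads in the high plane arcuate nucleus and 6.08% ± 1.21 (SD, n = 10) on the low plane. In the anterior pituitary they held 0.175% ± 0.041 (SD, n = 9) on the high plane, and in the testes 0.173% ± 0.021 (SD, n = 10). Their high plane means ran down from 9389 CPM with a median of 751.8 CPM, and 19 members exceeded 1000 CPM. By that mean the first 3 members ranked 6th, 8th and 9th among all genes of the arcuate nucleus. A longer transcript collects more reads at the same number of molecules, and no transcript lengths were used, so the order of the members by CPM is an order of reads and not of transcripts.

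The top of the list was steep, with 3 members far above the rest. ENSBTAG00000022890 had 2731 CPM in its lowest, 9162 in its median and 15725 in its highest high plane library, and 1316, 5164 and 11232 CPM on the low plane. ENSBTAG00000006977 had 3634, 7492 and 14448 CPM on the high plane and 2637, 6514 and 10664 CPM on the low plane. ENSBTAG00000013534 had 4050, 7035 and 10340 CPM on the high plane and 1458, 7225 and 15591 CPM on the low plane. For each of these 3 the ranges of the diets overlapped broadly, and the order among them was not the same on both planes. By low plane mean ENSBTAG00000013534 was the highest of the members, and ENSBTAG00000022890 lay below ENSBTAG00000006977. The order of the latter 2 depended on C6 and C33. ENSBTAG00000022890 had 2386 CPM in C6 and 1316 CPM in C33, against 10664 and 6529 CPM for ENSBTAG00000006977. In the other 8 low plane libraries their medians were 6443 and 6142 CPM, with ENSBTAG00000022890 the higher. The high plane means of the 3 members, 9389 ± 3862, 7675 ± 3099 and 6934 ± 2468 CPM (SD, n = 10 each), lay within 1 SD of each other.

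The next 7 members had high plane means between 1499 and 2245 CPM. ENSBTAG00000019037 had 1637, 2174 and 2869 CPM in its lowest, median and highest high plane library, ENSBTAG00000004777 had 1803, 2101 and 2928 CPM, and ENSBTAG00000018245 had 1660, 2080 and 2575 CPM. These neighbours in the order did not differ beyond their spread. ENSBTAG00000021013 followed with 953.3, 1899 and 2359 CPM and ENSBTAG00000013099 with 1301, 1558 and 1803 CPM. ENSBTAG00000015276 had 1049, 1318 and 2419 CPM, and ENSBTAG00000025762 had 719.7, 1422 and 2926 CPM. Below them the members formed a gentle slope with no further gap, as the plot of member levels shows.

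**Figure D1:**
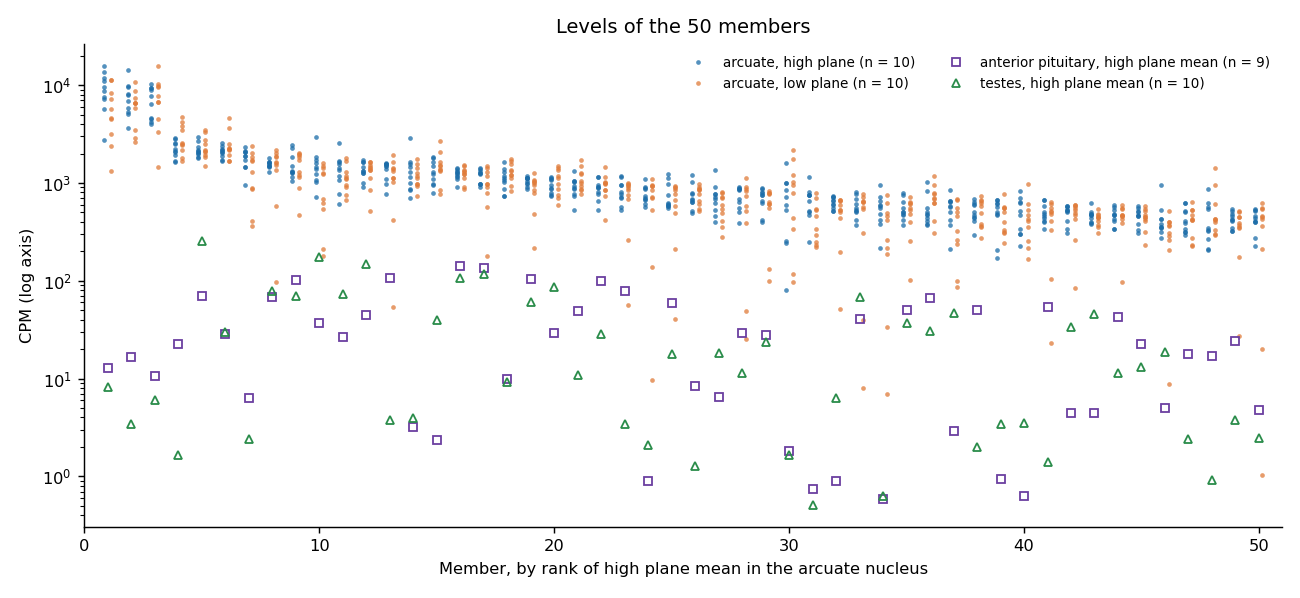
Level of each of the 50 members in CPM on a log axis, ordered by high plane mean in the arcuate nucleus. Dots are single arcuate nucleus libraries, 10 per plane, and open squares and triangles are high plane means of the anterior pituitary (n = 9) and testes (n = 10); the low plane dots that fall far below their column are mostly C6 and C33.

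How much the members were detected outside the arcuate nucleus varied widely. In high plane means, 12 members were under 10 CPM in both other tissues, and for 12 members both ratios exceeded 100. For 21 members the smaller of the 2 ratios was under 16, close to the limit of the rule. The high plane means behind the ratios include 3 anterior pituitary libraries and 1 testes library with a score under 2. ENSBTAG00000011274, for example, ran from 13.9 to 118.0 CPM in the high plane anterior pituitary, with a median of 103.1 CPM. The ratios were not recomputed without those libraries. The tissue nearest to the arcuate nucleus was the anterior pituitary for 30 members and the testes for 20. ENSBTAG00000022890 averaged 12.9 CPM in the anterior pituitary and 8.12 CPM in the testes, whereas ENSBTAG00000004777 averaged 69.4 and 253.7 CPM and so cleared the testes ratio at 8.63. The median member had a ratio of 35.8 to the anterior pituitary and 64.2 to the testes.

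The low plane libraries took no part in choosing the members, and the same contrast was tested in them. All 50 members passed the test as higher in the arcuate nucleus than in the anterior pituitary (edgeR quasi-likelihood test, false discovery rate (FDR) under 0.05, largest FDR among members 0.000846), against a background of 27.2% of 15808 genes called in that direction. All 50 were also higher than in the testes (largest FDR 0.000241), against a background of 30.4% of genes. The median member differed by 5.18 on the log2 scale from the anterior pituitary and by 5.93 from the testes. The range was 2.30 ± 0.30 (SE, n = 10 and 10) for ENSBTAG00000014001 to 10.1 ± 0.59 for ENSBTAG00000004574 in the first contrast. In the second contrast it was 2.95 ± 0.18 (SE, n = 10 and 8) for ENSBTAG00000009124 to 10.6 ± 0.51 for ENSBTAG00000019037. Every member was also called in both contrasts without C6 and C33, and without all low plane libraries with a score under 2.

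Applied to low plane means, the rule of ratios was met by 43 of the 50 members, beside 439 of the 24616 genes in the files. Of the 50 members, 42 were also among the first 50 genes of the low plane list. These low plane means include C6 and C33. For 38 of the 50 members the lowest low plane arcuate nucleus library lay above the highest low plane library of both other tissues, which 3.58% of the 23001 genes with reads did. Without C6 and C33 it was all 50 members, against 8.23% of genes. The 12 members that overlapped between tissues did so only through those 2 libraries.

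Library C6 and, less so, C33 carried the members in a changed mixture, although the share of reads on the members was 5.05% and 4.98%, inside the range of 4.29% to 8.15% of the low plane. Relative to the median of the other 8 low plane libraries, 24 of 50 members were at least 2-fold lower and 13 at least 2-fold higher in C6 after TMM scaling. In C33 these numbers were 17 and 3. Both libraries showed 16 members at least 2-fold lower and 2 at least 2-fold higher, and among all 14757 genes tested 29.8% and 6.12%. By this count after TMM scaling the members were close to genes at large. The split depended on the scaling. In CPM on library totals 29 members were at least 2-fold lower and 4 at least 2-fold higher in C6, and 22 and 1 in C33. In both libraries these were 21 and 1 members, and 33.9% and 1.33% of genes. The median of all genes tested was then 0.87 below the other low plane libraries in C6 and 0.20 below in C33 on the log2 scale, instead of 0.31 below in C6 and 0.01 above in C33 with TMM. In the other 18 libraries at most 11 of 50 members lay, after TMM scaling, 2-fold or more from the median of the other libraries of their diet. For the counts of members in a single library no share over all genes was computed, so they are not set apart from genes at large.

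ENSBTAG00000000791 had the largest shortfall. It had 213.4, 454.4 and 626.8 CPM as lowest, median and highest of the other 8 low plane libraries, but 1.04 CPM (9 reads) in C6 and 20.1 CPM (316 reads) in C33. ENSBTAG00000012393 had 9.69 CPM in C6 and 138.9 CPM in C33, where the median of the other 8 was 885.7 CPM. In the opposite direction, ENSBTAG00000013008 had 1753 and 2148 CPM in the 2 libraries against a median of 615.3 CPM. ENSBTAG00000017158 had 1428 CPM in C6 and 413.4 CPM in C33, against 413.8 CPM. After TMM scaling the differences had the same sign in both libraries for 44 of 50 members, and across the members they had a Pearson r of 0.87 (Spearman rho 0.87). Across all 14757 genes tested r was 0.90, and genes are not independent replicates.

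**Figure D2:**
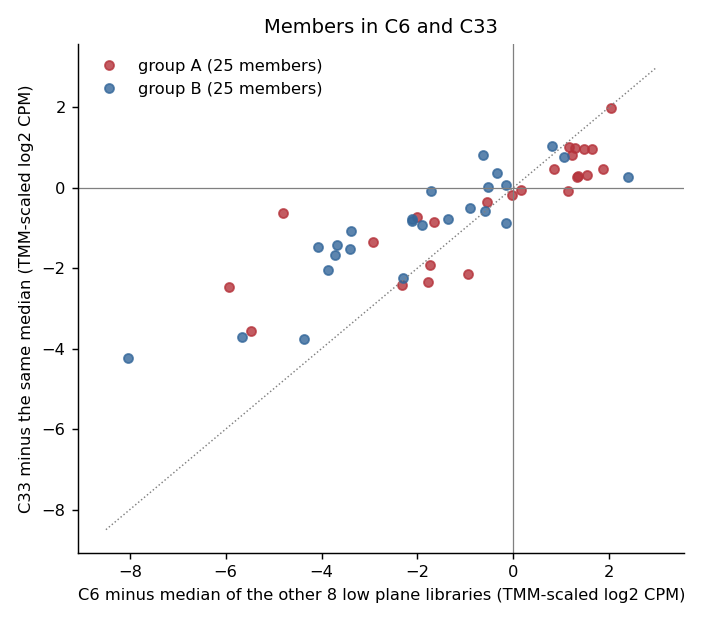
Difference of each member in libraries C6 (x axis) and C33 (y axis) from the median of the other 8 low plane arcuate nucleus libraries, in TMM-scaled log2 CPM. Points are the 50 members, coloured by the co-variation groups A and B described in the text, the dotted line marks equal differences, and 41 of 50 members lie closer to zero in C33 than in C6.

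The same ordering of members appeared in the other tissues, where no library is shared with the arcuate nucleus. The slope of each gene on the main axis of difference between libraries (the first scaling dimension, within diets) had the same sign in the arcuate nucleus and the anterior pituitary for 43 of the 47 members with a slope in both. In the arcuate nucleus and testes it had the same sign for 44 of 49. A scaling dimension has no direction of its own. In each of the other tissues it was turned so that slopes over all genes correlated positively with those of the arcuate nucleus. The counts of equal signs and the sign of r below were therefore partly set by that choice. Across members these slopes had an r of 0.87 with the anterior pituitary and 0.86 with the testes. Across the 13467 genes with a slope in all tissues r was 0.97 and 0.96, so the pattern was one that genes at large shared. The part of RNA quality or tissue makeup in this axis was not tested.

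Spread between libraries was measured as the SD of TMM-scaled log2 CPM within a diet. The median member had an SD of 0.37 on the high plane and 0.70 on the low plane, and 0.38 on the low plane without C6 and C33. The medians of all 14757 genes tested were 0.28, 0.61 and 0.28. The 431 genes with a mean log2 CPM at least that of the lowest member had lower medians, of 0.23, 0.52 and 0.23. Those genes include the members, have no upper limit of abundance and were not matched to the members. Without C6 and C33 a larger SD on the low plane was found for 30 of 50 members and for 51.3% of genes, against 45 members and 85.2% of genes with them.

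ENSBTAG00000013008 varied most among members once C6 and C33 were left out. On the high plane it had 80.1 CPM in its lowest, 661.0 in its median and 1590 in its highest library, a range of 19.8-fold, and on the low plane 96.1, 873.1 and 2148 CPM. The ranges of the diets overlapped almost entirely, and the 2 highest low plane libraries were C6 and C33. Its SD within diets was 1.49, and 1.37 without C6 and C33, against 0.35 for the median member. The lowest high plane value came from the shallow library C22 and rested on 72 reads, while the lowest low plane value came from C13.

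ENSBTAG00000000791 had the largest SD within diets over all 20 libraries (1.97), which fell to 0.41 without C6 and C33. The third was ENSBTAG00000017044 with 1.47 and 0.71, which had 216.9, 573.0 and 950.6 CPM on the high plane and 6.92 CPM in C6. The smallest SDs within diets were those of ENSBTAG00000009124 (0.24), ENSBTAG00000000905 (0.29) and ENSBTAG00000000564 (0.30). ENSBTAG00000009124 stayed between 384.0 and 629.3 CPM in all 10 high plane libraries and between 310.6 and 546.3 CPM in all 10 low plane libraries. It had 310.6 CPM in C6 and 356.0 CPM in C33, below the lowest of the other 8 low plane libraries (368.4 CPM). A different member was the steadiest on the high plane alone, ENSBTAG00000013099 with an SD of 0.13 and a range of 1.39-fold, but in C6 it had 96.3 CPM against a low plane median of 1634 CPM. On the high plane 16 of 50 members had a range under 2-fold and 8 had a range over 4-fold.

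**Figure D3:**
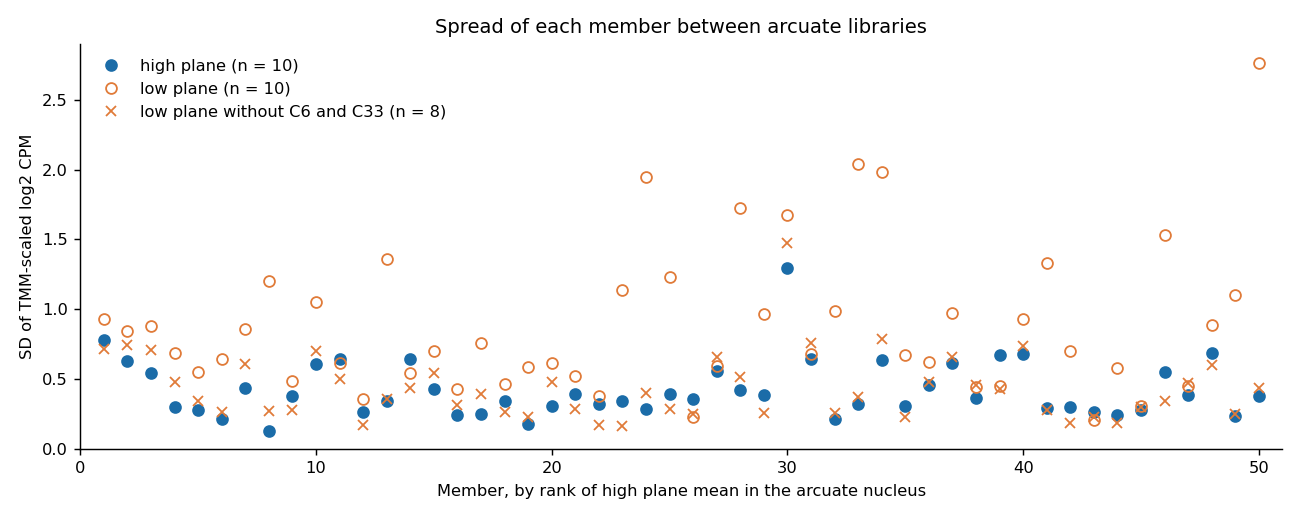
SD of TMM-scaled log2 CPM of each member between arcuate nucleus libraries (y axis), by rank of its high plane mean (x axis). Filled points are the high plane (n = 10), open circles the low plane (n = 10) and crosses the low plane without C6 and C33 (n = 8); most crosses lie near the filled points and far below the highest open circles, and at rank 30 (ENSBTAG00000013008) all 3 are high.

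Co-variation was described by the correlation of TMM-scaled log2 CPM between members across arcuate nucleus libraries after removing the mean of each diet. The points share library, depth and normalization, so the values are descriptions with no test. Over the 1225 pairs the median r was 0.19 in 20 libraries and 0.28 in the 18 without C6 and C33, against 0.01 and 0.00 for pairs of all genes tested. An r over 0.8 was found for 17.3% of member pairs in 20 libraries, beside 10.4% of pairs of all genes. Without C6 and C33 it was 10.2% of member pairs and 0.516% of pairs of all genes. Leaving out C6 and C33 thus lowered the share far more for genes at large than for members. The genes tested include scarce ones, in which counting error can lower r, whereas the members were chosen for abundance. No background of genes as abundant as the members was computed for r, so the gap is not shown to be particular to the members.

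The 3 closest pairs in 20 libraries all held ENSBTAG00000038974. It reached r = 0.99 with ENSBTAG00000000791, ENSBTAG00000011274 and ENSBTAG00000016696, and 0.82, 0.87 and 0.88 in 18 libraries. The 3 lowest pairs all held ENSBTAG00000018245, with r = -0.90 against ENSBTAG00000000791, -0.88 against ENSBTAG00000016696 and -0.87 against ENSBTAG00000038974. In 18 libraries these fell back to -0.34, -0.21 and -0.20, so that the opposition of ENSBTAG00000018245 to the others rested mainly on C6 and C33.

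In 18 libraries the closest pairs were others. ENSBTAG00000017044 and ENSBTAG00000011007 had r = 0.99 (0.99 on each plane), ENSBTAG00000009774 and ENSBTAG00000011007 had r = 0.98, and ENSBTAG00000006977 and ENSBTAG00000004574 had r = 0.98. They belonged to a set of 12 members linked to each other by values over 0.9. The set included 4 of the 10 most abundant members, namely ENSBTAG00000022890, ENSBTAG00000006977, ENSBTAG00000021013 and ENSBTAG00000025762. Its lowest pairwise r was 0.80 and its median 0.92, with medians of 0.94 on the high plane and 0.92 in the 8 low plane libraries. With C6 and C33 the median fell to 0.75, and 4 of the 12 members were at least 2-fold lower and 4 at least 2-fold higher in C6 after TMM scaling (6 and 1 on library totals). A second set of 6 members had a median r of 0.87 in 18 libraries, 5 of which were at least 2-fold lower in C6 and none 2-fold higher (6 and 0 on library totals). The median ratios of the 12 members were 313.1 to the anterior pituitary and 213.4 to the testes, and those of the 6 members were 10.8 and 27.

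Average linkage on the 10 high plane libraries divided the members into groups A and B of 25 each. The set of 12 lay wholly in A and the set of 6 wholly in B. On the high plane, which formed the groups, the median r was 0.56 within A, 0.67 within B and -0.32 between them. In the 8 low plane libraries without C6 and C33, which did not form the groups, the median r was 0.77 within A, 0.37 within B and 0.13 between them. The pairs within A were positive in 99.3% of cases there and those within B in 72.0%, beside 56.6% of the pairs between A and B. With C6 and C33 included, the medians over the 10 low plane libraries were 0.42 within A, 0.42 within B and -0.05 between them, with 61.7%, 74.3% and 48.5% of pairs positive. The values within A on the low plane thus rested on leaving out those 2 libraries. Grouping on the 8 low plane libraries gave groups of 37 and 13 members and put 38 of 50 in the same group. Leaving C22 out of the high plane put 46 of 50 in the same group. The means of groups A and B had r = -0.46 on the high plane and 0.33 in the 8 low plane libraries.

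Group A held 8 of the 10 most abundant members and 10 of the 12 members with both ratios over 100. Its median ratios were 159.3 to the anterior pituitary and 80.4 to the testes, against 17.1 and 42.1 for group B. The reads on group A made up 2.79% of the lowest, 4.92% of the median and 6.55% of the highest high plane library, and those on group B 1.36%, 1.93% and 2.37%. The mean log2 CPM of group A was lowest in C22 (9.41) and highest in C60 (10.7) among high plane libraries. On the low plane it was lowest in C8 (9.14) and highest in C28 (10.5), C6 and C33 aside. Group B ranged from 8.92 to 9.66 on the high plane and from 9.22 to 9.63 in the 8 low plane libraries. In C6 and C33 it fell to 7.42 and 8.44, while group A was at 9.58 and 9.68, so the narrower range of group B did not hold over all 10 low plane libraries.

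**Figure D4:**
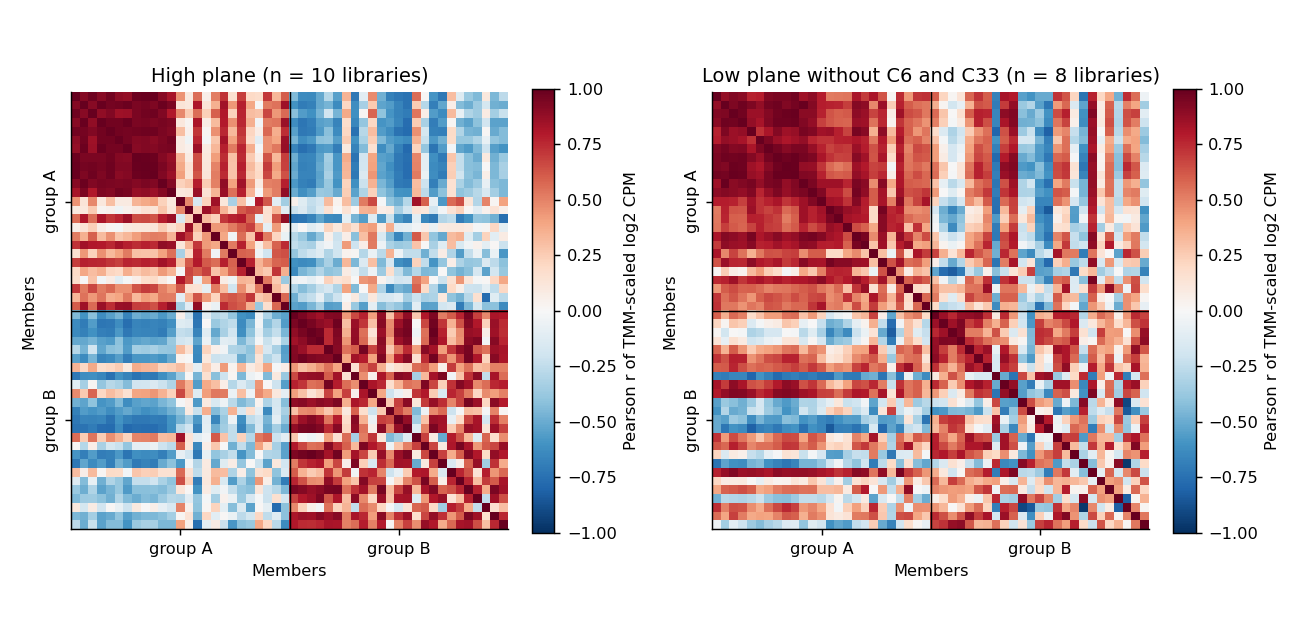
Pearson r of TMM-scaled log2 CPM between all pairs of the 50 members in the 10 high plane libraries (left) and the 8 low plane libraries without C6 and C33 (right). Members are in the same order in both panels, black lines divide groups A and B, and red is positive and blue negative; the block of 12 members at the upper left is red in both panels, and the A with B blocks hold 25.3% positive pairs on the left and 56.6% on the right.

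The diet contrast in the arcuate nucleus, low plane over high plane, used the same high plane libraries that chose the members. Choosing members for high means there can by itself favour values lower on the low plane, which a background of all genes does not allow for. None of the 50 members passed the test (edgeR quasi-likelihood test, FDR under 0.05, smallest FDR 0.477), against a background of 0% of 14757 genes called. At an unadjusted p under 0.05 there were 3 of 50 members, 1 higher and 2 lower on the low plane, against a background of 9.92% of genes (8.2% higher and 1.72% lower). DESeq2 also called 0 members, with 3 at an unadjusted p under 0.05 beside 1649 of 14757 genes. Limma voom with quality weights called 0 members too, with 1 at an unadjusted p under 0.05 beside 743 of 14757 genes. The median log2 fold change of the members was -0.11, with 35 lower and 15 higher, beside a median of -0.01 over all genes tested. No member had diets that did not overlap in CPM, and neither did any of the genes tested (0%).

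The member with the smallest p was ENSBTAG00000009774. It had 251.4, 698.8 and 1144 CPM on the high plane as lowest, median and highest, and 220.7, 397.8 and 783.6 CPM on the low plane. The log2 fold change was -0.59 ± 0.27 (SE, n = 10 and 10, edgeR FDR 0.477). ENSBTAG00000019037 had 1679, 2541 and 4778 CPM on the low plane, beside the high plane values above, and a log2 fold change of 0.49 ± 0.23. ENSBTAG00000025762 had 178.1, 963.0 and 1595 CPM on the low plane and -0.72 ± 0.34, and ENSBTAG00000022890 had -0.67 ± 0.34. ENSBTAG00000021801 had 371.3, 475.3 and 1031 CPM on the high plane, 306.7, 690.3 and 1181 CPM on the low plane and 0.44 ± 0.23. The ranges of both diets overlapped for all 5, and in 4 of the 5 the lowest or highest low plane value came from C6 or C33.

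Without C6 and C33 no member had an unadjusted p under 0.05, against 3.87% of genes, and edgeR called 0 genes. The 5 members then had log2 fold changes of -0.52 ± 0.29, 0.16 ± 0.17, -0.47 ± 0.28, -0.47 ± 0.31 and 0.18 ± 0.21 (SE, n = 10 and 8), in the order above. The median of all members moved to -0.03, with 28 lower and 22 higher, and their median SE from 0.26 to 0.16. Group A had a median of -0.18 with 20 of 25 members lower, and group B a median of 0.05 with 8 of 25 lower. With all 20 libraries these medians were -0.19 (16 of 25 lower) and -0.09 (19 of 25 lower). The members of each group move together between libraries, so these counts do not stand for 25 separate observations.

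**Figure D5:**
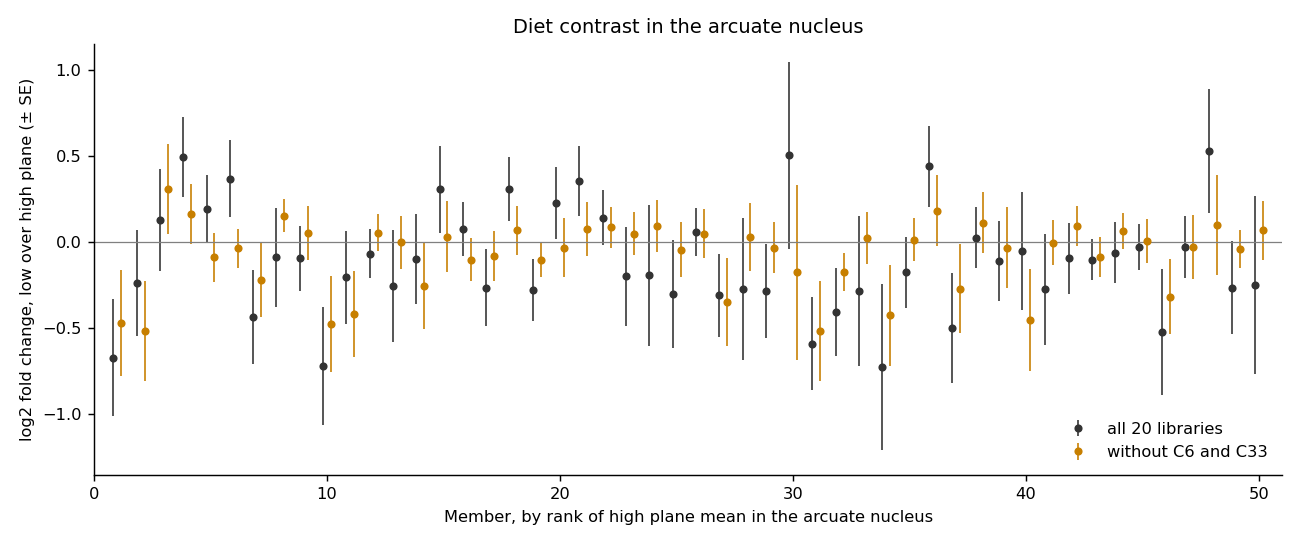
Log2 fold change of each member in the arcuate nucleus, low over high plane, with its SE (y axis), by rank of its high plane mean (x axis). Black points use all 20 libraries and ochre points leave out C6 and C33; the ochre error bars are mostly shorter, and the values lie between -0.52 and 0.31 without the 2 libraries and between -0.73 and 0.53 with them.

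Outside the arcuate nucleus the members were tested at the low levels they have there. In both tissues the high plane libraries of these contrasts also took part in choosing the members, for low means. That choice can by itself favour values higher on the low plane, and a background of all genes does not allow for it. In the anterior pituitary 47 members passed the filter on low counts and 0 passed the test (edgeR quasi-likelihood test, smallest FDR 0.254, 5 at an unadjusted p under 0.05), against a background of 0.562% of 14411 genes called and 7.42% at that unadjusted p. The smallest p was that of ENSBTAG00000000905, with 12.3, 23.9 and 29.1 CPM on the high plane, 19.3, 33 and 42.2 CPM on the low plane and a log2 fold change of 0.46 ± 0.14 (SE, n = 9 and 10). ENSBTAG00000001599 followed with 19.9, 44.6 and 62.7 CPM on the high plane, 32.6, 62.3 and 88.5 CPM on the low plane and 0.54 ± 0.18. With the library score as a covariate 6 members were called, all higher on the low plane, against 4.97% of genes called higher. Without the 5 libraries with a score under 2, edgeR called 3 of 48 members, all higher, against 2.77% of 14563 genes called higher. ENSBTAG00000000905 and ENSBTAG00000001599 were among them at 0.39 ± 0.08 (FDR 0.00886) and 0.46 ± 0.10 (FDR 0.0155).

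In the testes 49 members passed the filter and 6 passed the test, 3 higher and 3 lower on the low plane, against a background of 6.9% of 15310 genes (4.75% higher and 2.16% lower). With the log2 total count as a covariate, 0 members and 2 genes were called. With library totals in place of TMM the calls over all genes were 2025 higher and 311 lower, instead of 727 and 330. ENSBTAG00000011007 had 7.70, 48.2 and 77.8 CPM on the high plane and 4.97, 12.6 and 17.6 CPM on the low plane, and fell by 2.05 ± 0.40 on the log2 scale (SE, n = 10 and 8, edgeR FDR 0.0180). ENSBTAG00000025762 had 29.4, 186.9 and 285.2 CPM on the high plane and 17.9, 58.5 and 123.3 CPM on the low plane, and fell by 1.46 ± 0.40 (edgeR FDR 0.0377). ENSBTAG00000012119 had 6.71, 10.9 and 15.3 CPM on the high plane and 11.7, 21.5 and 34.7 CPM on the low plane, and rose by 1.02 ± 0.21 (edgeR FDR 0.0206). ENSBTAG00000004574 had 2.15, 3.13 and 5.94 CPM on the high plane and 3.70, 6.40 and 14.5 CPM on the low plane, and rose by 1.08 ± 0.30 (edgeR FDR 0.0385). The ranges of the diets overlapped for these 4, and the other 2 called members had log2 fold changes of -1.39 and 0.75.

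The library score moved with diet in the testes. It was -1.10, 0.98 and 4.82 as lowest, median and highest of the 8 low plane libraries and -0.65, 4.67 and 4.98 of the 10 high plane libraries. Without the 6 libraries with a score under 2, which leaves 9 high plane and 3 low plane libraries, edgeR called 0 of 50 members and 0% of 15935 genes, and an unadjusted p under 0.05 was found for 11 members and 16% of genes. The log2 fold changes were then -1.74 ± 0.39 for ENSBTAG00000011007 and -0.81 ± 0.24 for ENSBTAG00000025762, and 0.53 ± 0.19 for ENSBTAG00000012119 and 0.31 ± 0.26 for ENSBTAG00000004574. With the score as a covariate 5 members were called, against 6.21% of genes, among them ENSBTAG00000011007 (-1.42 ± 0.41) and ENSBTAG00000012119 (0.69 ± 0.19). In the arcuate nucleus the 4 members had log2 fold changes that did not pass the test, and no contrast of the diet effect between tissues was fitted.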

How the data were processed

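The authors deposited, for each of 57 libraries, whole-number counts of reads on each gene, with no normalization. Processing tools listed by the submitters are CASAVA 1.4, STAR, HTSeq and edgeR, and the genome build and annotation release were not given in the sources used here. The authors removed 3 libraries before deposit. Identifiers could not be matched to names (0 of 24616), so planned gene lists and tissue markers were not applied and no sequences are shown. The members and lists were chosen with earlier results of these data known.

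Counts passing filterByExpr of edgeR 4.0.16 (R 4.3.3) were scaled by TMM and compared by its quasi-likelihood test, adjusted after Benjamini and Hochberg at 0.05. Diets were compared within tissue, and tissues in 1 fit over the low plane libraries. Standard errors came from the fold change and the F statistic. Spread, correlation between members, the library score and group means used TMM-scaled log2 CPM with a prior count of 2 (numpy 2.4.6, scipy 1.17.1). Correlation between libraries used plain CPM on a log scale. The library score was devised after the data were seen in earlier work. Fits were checked on simulated counts, drawn for each gene separately. Such counts hold no axis of difference between libraries that genes share, so the check does not cover the libraries that stood apart. Named members are the 10 most abundant, those called in a diet contrast or, where none was, those with the smallest p, the 3 largest and 3 smallest SDs, the 3 highest and 3 lowest pairs, and ranks 49 to 52. The members named in the account of C6 and C33, the anterior pituitary and the 18-library pairs were chosen after their values were seen, as were groups A and B and the sets linked at r over 0.9. The title of library A48 has the prefix of the anterior pituitary libraries, while its tissue label is testes and its data header has the testes prefix. It was kept as testes, and the conflict was not resolved.

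Totals of 898979 to 32009433 reads set the counting error. The lowest count of a member in an arcuate nucleus library was 9, and 1591 without C6, C33 and C22, and such errors cover counting only. Per the study's methods each calf gave 1 library a tissue, so libraries of a tissue and diet are separate calves, and the labels do not tie libraries across tissues. Alternatives were DESeq2 1.42.0, limma 3.58.1 voom with quality weights, RLE factors, library totals, no filter, a minimum of 1 CPM in all libraries, covariates (log2 total count, library score) and leaving out each arcuate nucleus library. Leaving out C6 and C33, with or without C22, and the libraries with a score under 2, and comparing C6 and C33 on library totals, was chosen after seeing the data.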

Additional observations from a re-analysis of the deposited data

Results flagged for a closer look

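In groups of 4 to 10 libraries, a value was picked out when its gap to the nearest library took more of the group's range than Dixon's 95% limit allows. Among 58 groups of values searched (20 members on each plane and 3 measures of libraries in each group), 7 values were picked out, and chance gives about 1 in 20 groups, or 2.9. Of members, ENSBTAG00000025762 had 2926 CPM in high plane library C60, where the next library had 1821 CPM, and ENSBTAG00000009124 had 629.3 CPM in the same library, where the next had 499.1 CPM. ENSBTAG00000001599 had 98.2 CPM in low plane library C6, and the next lowest had 386.3 CPM. The share of reads on the members was 0.125% in low plane anterior pituitary library A10, beside 0.187% in the next, and 0.120% in high plane testes library B42, beside 0.165%. B42 also had the low library score of its group, -0.651 against 4.197 in the next library. The total of low plane arcuate nucleus library C41 was 27729419 reads, beside 16556829 in the next. The test looks at 1 library at each end of a group, so C6 and C33, which lie near each other, were not both within its reach.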

How the results depend on the processing

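No paired analysis was possible because library numbers were not shared between groups and the labels do not name the calf. In the arcuate nucleus no member was called in any of the alternatives. DESeq2 called 1 gene there, which was not a member, and every other fit called 0. The 3 members at an unadjusted p under 0.05 became 1 with limma voom (743 of 14757 genes) and 1 with CPM above 1 in every library (1026 of 10935). They became 0 with the library score as covariate (552 of 14757 genes) and 0 without C6 and C33 (575 of 14874). Leaving out 1 library at a time gave 0 to 6 such members. There were 6 without C41, beside 2327 of 14796 genes. There were 0 without C60 (1000 of 14806 genes), C3 (1111 of 14810), C6 (750 of 14819) or C33 (601 of 14807). These fits gave between 30 and 36 members with a negative log2 fold change, instead of 35. In the anterior pituitary limma voom called 3 members, the score covariate 6 and the fit without libraries scoring under 2 called 3. Genes called there, 81 at first, were 258 (DESeq2), 1134 (voom), 50 (library totals), 1298 (score) and 833 (without low scores). In the testes the 6 member calls became 27 with voom, 2 without a filter, and 0 with the log2 total count and without low scores. The 1057 genes called there became 1972 (DESeq2), 11119 (voom), 2336 (library totals), 609 (no filter), 2 (log2 total count) and 0 (without low scores). In the low plane tissue contrasts, CPM above 1 in every library left 31 members to be tested, all of them called, and 5318 genes called against the anterior pituitary instead of 8004, and 6340 against the testes instead of 9886. Without low scores 12011 genes were called against the anterior pituitary. Library totals moved the median of all genes in the anterior pituitary contrast by 0.13 on the log2 scale, and leaving out C6 and C33 took it to -0.22. With a ratio of 4 the list shared 32 of 50 members, and with 16 it shared 29. The low plane, medians, TMM-scaled CPM, an offset of 5 and leaving out C22 left 42 to 49. The median SD of members on the low plane fell from 0.70 to 0.38 without C6 and C33, and the other alternatives moved the median SDs and the median r by less than the spread between members. The causes of these shifts were not tested. Depth limits the members in C22 and in the other 2 tissues, where counts fall to single reads.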

Other observations

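The members most like ENSBTAG00000013008, the member with the widest spread in 18 arcuate nucleus libraries, were looked up after its values were seen. They were ENSBTAG00000013099 (r = 0.67, Spearman rho 0.53), ENSBTAG00000021013 (r = 0.66, rho 0.46) and ENSBTAG00000011007 (r = 0.62, rho 0.44). On the high plane alone the first of these had r = 0.40, and in the 8 low plane libraries without C6 and C33 r = 0.86. ENSBTAG00000013008 therefore had no partner as close as those within the set of 12 members, where the lowest r was 0.80. The values share libraries and normalization and are given without a test.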
